A study of Mus musculus with 16 samples.

Results

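Oxidative phosphorylation genes were taken as the mouse genes whose symbol starts with Nduf followed by a, b, c, s or v, Uqcr, Cox4 to Cox8 or Atp5, is Sdha to Sdhd, or starts with mt-Nd, mt-Co, mt-Cytb or mt-Atp, without symbols marked as pseudogenes. 111 genes of the GENCODE annotation matched, and 107 of the 32989 genes in the count table did so. 13 of the 107 lie on the mitochondrial chromosome and 94 in the nucleus. By complex the nuclear genes comprised 41 of complex I, 8 assembly factors of complex I (Ndufaf symbols), 4 of complex II, 8 of complex III, 16 of complex IV and 17 of complex V. The mitochondrial genes comprised 7 of complex I, 1 of complex III, 3 of complex IV and 2 of complex V. Cox4i2, Cox8b, Cox8c and a second identifier of Atp5o were not among the genes of the count table. The rule and the split by complex use symbols only.

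They were followed in hair follicle stem cell (HFSC) organoids, three-dimensional cultures of mouse epidermal cells grown for 2 weeks in the 3D-3C system. The cultures came from 4 C57BL/6J mice, and the study's methods describe cell isolation from animals of both sexes in the resting phase of the hair cycle, with no sex or age given per mouse. No transgene or deletion was carried by any group. Cells were left untreated (labelled WT and control) or given N1-acetylspermidine (N1-AcSpd), a polyamine acetylated on its aminopropyl end, for 72 h, at a dose the sources used here do not give for this experiment. Sorting on α6 integrin and CD34 then gave progenitors (α6+/CD34−) and HFSCs (α6+/CD34+). Each mouse gave 1 sample, and so 1 library, to each of the 4 groups: untreated CD34−, N1-AcSpd CD34−, untreated CD34+ and N1-AcSpd CD34+, making 16 libraries of 3′ RNA sequencing with unique molecular identifiers (UMIs), in which each UMI marks a single molecule.

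In oxidative phosphorylation, complex I (NADH dehydrogenase) and complex II (succinate dehydrogenase) pass electrons from metabolic fuels to ubiquinone, complex III (the cytochrome bc1 complex) passes them to cytochrome c and complex IV (cytochrome c oxidase) to oxygen. Complexes I, III and IV pump protons across the inner mitochondrial membrane, and complex V (ATP synthase) uses the gradient to make ATP. Complex II is encoded by nuclear genes throughout. The other complexes combine nuclear subunits with core subunits encoded by mitochondrial DNA, which is transcribed as long precursor RNAs that are cut into messages. In skin, hair follicle stem cells are known for a glycolytic metabolism, and mitochondrial respiration has been linked to hair follicle function and to keratinocyte differentiation.

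The libraries held 15480075 to 29074855 UMIs. Levels below are in CPM, UMI counts relative to the library total after scaling by TMM, a method that sets each library's scale from the bulk of its genes. They are not divided by gene length, so they compare groups for 1 gene and not genes with each other. Keratinocyte markers (7 genes) summed to 6417 to 7389 CPM over all libraries. HFSC markers (7 genes) summed to 55.5 to 65.7 CPM in untreated and 44.1 to 58.0 CPM in N1-AcSpd CD34− libraries, and to 156.9 to 206.6 and 154.0 to 208.3 CPM in CD34+ libraries. With N1-AcSpd 1 of these 7 genes was called lower in CD34− cells (list median log2 fold change -0.25) and 0 in CD34+ cells (-0.048). Epidermal differentiation markers (8 genes) summed to 727 to 1023 CPM in untreated and 925 to 1474 CPM in N1-AcSpd CD34− libraries, and to 161 to 251 CPM in CD34+ libraries. Fibroblast markers (6 genes, none at 0 in a whole group) reached at most 1.52 CPM in sum and immune markers (4 of 6 genes in the table, with Cd74 at 0 in both CD34− groups and Cd3e at 0 in both untreated groups) 2.03 CPM. Of 4 endothelial markers Pecam1 and Kdr were in the table, with a sum of 1686 to 2054 CPM, of which Pecam1 alone had group means of 1755 to 1985 CPM, and the melanocyte list (6 of 7 genes in the table, Tyr at 0 in untreated CD34− and Tyrp1 at 0 in both CD34+ groups) reached 28.0 to 36.1 CPM. The part of these cell type markers in the results below was not tested. In bulk samples such as these, fewer cells of a type and less RNA per cell cannot be told apart.

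Some counts are shared between genes. On the mitochondrial chromosome mt-Atp8 and mt-Atp6 overlap by 43 bases (chrM:7927-7969, GRCm38, plus strand), read here from the GENCODE transcripts, with the start codon of mt-Atp6 and the stop codon of mt-Atp8 in capitals.
mt-Atp8/mt-Atp6: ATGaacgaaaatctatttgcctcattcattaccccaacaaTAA
The genes mt-Nd4l and mt-Nd4 share 7 bases (chrM:10167-10173), shown because they hold both the start codon of mt-Nd4 and the stop codon of mt-Nd4l.
mt-Nd4l/mt-Nd4: ATGCTAA
Nuclear copies of mitochondrial DNA on chromosome 1 took counts in a nearly constant ratio to those of the mitochondrial gene. The copy Gm28437 (783 bases, chr1:24613189-24613971) matched mt-Co3 with 0 edits and held 99.94% as many UMIs as it, Gm10925 (678 bases, chr1:24613974-24614651) matched mt-Atp6 with 0 edits and held 99.2%, and Gm29216 (492 bases, chr1:24615706-24616197) matched part of mt-Co1 with 6 edits and held 92.7%. Gm10222 (294 bases, chr1:24612407-24612700) matched mt-Nd4l with 0 edits and held 85.5%. RNA of a copy and RNA of its mitochondrial gene therefore cannot be told apart in these counts for mt-Co3, mt-Atp6, mt-Nd4l and part of mt-Co1. Among nuclear genes Ndufa13, Ndufb8 and Atp5g2 had near-identical counts with Yjefn3, Gm20538 and Gm10175, and the annotation lists the members Ndufa11b, Ndufb4c, Ndufs6b and Cox6c2 as processed pseudogenes. The sources used here do not say whether strand was used in counting, and several members overlap a gene on the opposite strand.

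The mitochondrial genes took a larger share of all UMIs in CD34+ than in CD34− cells, and a smaller share after N1-AcSpd in each cell type. Their share of UMIs, before any scaling, was 1.16, 1.05, 1.08 and 1.12% in untreated CD34− libraries of mice 1 to 4 and 1.04, 0.938, 0.946 and 0.974% in N1-AcSpd CD34− libraries. It was 1.44, 1.28, 1.37 and 1.45% in untreated CD34+ libraries and 1.235, 1.23, 1.254 and 1.28% in N1-AcSpd CD34+ libraries. All 8 CD34+ libraries lay above all 8 CD34− libraries, and N1-AcSpd libraries lay below the untreated library of the same mouse in 4 of 4 mice of each cell type. The 94 nuclear genes took 1.44% ± 0.042 and 1.41% ± 0.0077 of UMIs in untreated and N1-AcSpd CD34− cells, and 1.55% ± 0.022 and 1.56% ± 0.040 in CD34+ cells (SD, n = 4). In this share too, all 8 CD34+ libraries (1.52 to 1.61%) lay above all 8 CD34− libraries (1.39 to 1.485%). The ratio of mitochondrial to nuclear UMIs of the pathway, which no library scaling changes, was 0.769 ± 0.022 and 0.692 ± 0.035 in CD34− and 0.896 ± 0.040 and 0.7997 ± 0.014 in CD34+ cells. Its ranges did not overlap between untreated and N1-AcSpd libraries of either cell type (0.747 to 0.796 against 0.666 to 0.741, and 0.843 to 0.936 against 0.779 to 0.810). On the TMM scale the fall with N1-AcSpd was largest in the 3 complex IV genes, where mt-Co1 and mt-Co3 share counts with nuclear copies. The summed means of these 3 genes went from 6274 to 5206 CPM in CD34− and from 7512 to 6296 CPM in CD34+ cells. Those of all 13 genes went from 11520 to 10130 and from 13350 to 11970 CPM. The mean of mt-Cytb went from 2477 to 2391 and from 2752 to 2739 CPM. These sums are given as values, with no test.

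**Figure D1:**
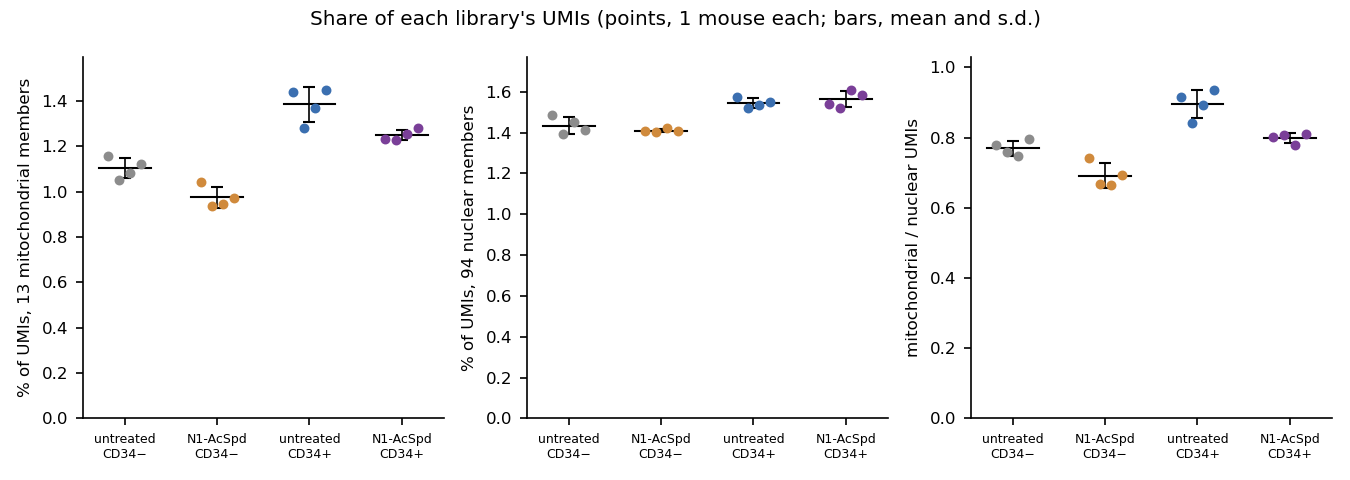
Share of each library's UMIs in the 13 mitochondrial genes (left, %), in the 94 nuclear genes (middle, %) and the ratio of both (right) in the 4 groups; points are libraries of 1 mouse each and bars the mean and SD. The mitochondrial share runs from 0.938% in N1-AcSpd CD34− to 1.45% in untreated CD34+ libraries, and the nuclear share from 1.39 to 1.485% in CD34− and from 1.52 to 1.61% in CD34+ libraries.

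The 104 genes whose count averaged 5 or more were compared between groups with edgeR in a fit of all genes and all libraries, and a gene was called at a Benjamini-Hochberg adjusted p under 0.05 over the 19049 genes tested. The 3 genes below that count were Cox6a2, Cox7a1 and Cox7b2. In untreated cells 20 of the 104 genes were higher and 15 lower in CD34+ than in CD34− cells, 33.7% in all beside 32.1% of all tested genes (16.1% higher and 16.1% lower). In N1-AcSpd cells 31 were higher and 8 lower, 37.5% in all beside 33.3% of all genes (16.5% higher and 16.8% lower). The share of these genes called, both directions together, was thus near that of all genes in both cell type comparisons. By direction it was 19.2% higher and 14.4% lower untreated, and 29.8% higher and 7.69% lower under N1-AcSpd. The median log2 fold change of the 104 genes was 0.025 in untreated and 0.061 in N1-AcSpd cells, beside 0.022 and -0.0068 over all genes. 26 genes were called in both, and these had the same direction both times (19 higher and 7 lower).

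The directions depended on the scale. When levels were scaled by library totals only, the median over all genes moved to 0.14 in untreated and 0.11 in N1-AcSpd cells. On that scale 54 of the 104 genes were higher and 0 lower in untreated CD34+ cells (25.5% and 9.25% of all genes), and 71 higher and 0 lower in N1-AcSpd CD34+ cells (25.2% and 10% of all genes). The median of the 104 genes on that scale was 0.14 and 0.18. The calls of genes as lower in CD34+ cells were thus made on the TMM scale and not on library totals.

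Few of these genes were called between N1-AcSpd and untreated cells. In CD34− cells 0 were higher and 2, mt-Nd2 and mt-Co1, lower. This is 1.92% of the 104 genes (0.614% of all genes called, 0.241% called lower). In CD34+ cells 0 were higher and 1, mt-Co3, lower, or 0.962% of the 104 genes (0.325% of all genes called, 0.136% called lower). DESeq2 called 8 of the 104 genes in each cell type, 7 of them lower in CD34− and 3 in CD34+ cells (2.96% and 2.25% of all genes). At an unadjusted p under 0.05 edgeR gave 24 genes in CD34− and 15 in CD34+ cells (13.6% and 13.2% of all genes). With the mouse as a block, 5 and 2 genes were called, while the share of all genes called rose to 1.83% and 0.798%. The test of whether the cell type difference itself changed with N1-AcSpd called 0 genes by edgeR and 0 by DESeq2 (0.0% and 0.382% of all genes), and 5 had an unadjusted p under 0.05 (4.19% of all genes).

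The mitochondrial subunits of complex IV, the catalytic core of cytochrome c oxidase, were each called higher in CD34+ cells in both conditions, and 2 of the 3 were called lower after N1-AcSpd, mt-Co1 in CD34− and mt-Co3 in CD34+ cells. mt-Co1 (chrM, 5328 to 6872), the subunit with the oxygen-reducing centre, measured 1716, 1470, 1501 and 1546 CPM in untreated CD34− libraries of mice 1 to 4 and 1357, 1191, 1234 and 1252 CPM in N1-AcSpd CD34− libraries. It measured 2039, 1836, 1865 and 2065 CPM in untreated CD34+ and 1617, 1523, 1649 and 1773 CPM in N1-AcSpd CD34+ libraries. Neither pair of treatment groups overlapped, and neither pair of cell types did. mt-Co1 was higher in CD34+ cells by 0.32 on the log2 scale when untreated (SE 0.061, edgeR adjusted p 0.00101) and by 0.38 under N1-AcSpd (SE 0.061, adjusted p 0.000247). After N1-AcSpd it was lower by a log2 fold change of -0.31 in CD34− cells (SE 0.060, edgeR adjusted p 0.0420). In CD34+ cells its log2 fold change of -0.25 did not pass the test (SE 0.060, adjusted p 0.104), while the fit with the mouse as a block called it in both cell types (adjusted p 0.00672 and 0.0199).

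mt-Co3 (chrM, 8607 to 9390), a core subunit without a metal centre, measured 3701, 3246, 3454 and 3508 CPM in untreated and 2996, 2858, 2548 and 2965 CPM in N1-AcSpd CD34− libraries. In CD34+ cells it measured 4369, 3851, 4006 and 4238 CPM untreated and 3107, 3482, 2951 and 3472 CPM with N1-AcSpd. All 4 treated libraries lay below all 4 untreated ones in each cell type. The log2 fold change with N1-AcSpd was -0.34 in CD34+ cells (SE 0.066, edgeR adjusted p 0.0484) and -0.29 in CD34− cells (SE 0.065, adjusted p 0.0686, called with the mouse as a block at 0.0289). Between cell types mt-Co3 was higher in CD34+ cells by 0.24 untreated (SE 0.065, adjusted p 0.0112) and by 0.20 under N1-AcSpd (SE 0.065, adjusted p 0.0335), where the groups overlapped. mt-Co2, which carries the copper centre that accepts electrons from cytochrome c, measured 1239 ± 51 and 1106 ± 61 CPM in untreated and N1-AcSpd CD34− cells and 1445 ± 65 and 1402 ± 148 CPM in CD34+ cells. It was called higher in CD34+ cells (log2 0.22 and 0.34, adjusted p 0.0175 and 0.000949) and not called under treatment (log2 -0.16 and -0.043, adjusted p 0.283 and 0.883).

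These treatment calls lay near the threshold. The call of mt-Co1 in CD34− cells was lost without the CD34− untreated sample of mouse 1, 3 or 4, the CD34− N1-AcSpd sample of mouse 2, 3 or 4, the CD34+ untreated or N1-AcSpd sample of mouse 1, or any whole mouse (log2 -0.33 to -0.26, adjusted p 0.0528 to 0.219). That of mt-Co3 in CD34+ cells was lost in 19 of 20 such runs, all but that without the CD34− N1-AcSpd sample of mouse 3 (log2 -0.40 to -0.29, adjusted p 0.0529 to 0.344). The log2 fold change stayed below 0 in every one of these runs. Between cell types, mt-Co2 lost its untreated call without the CD34− sample of mouse 3, the CD34+ sample of mouse 4, or mouse 1 or 3 (log2 0.19 to 0.23), and mt-Co3 lost its N1-AcSpd call without the CD34− sample of mouse 2 or 3, the CD34+ sample of mouse 2 or 4, or mouse 2, 3 or 4 (log2 0.15 to 0.20) and its untreated call without mouse 4 (log2 0.23).

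Of the 7 mitochondrial subunits of complex I, which form its proton-pumping membrane arm, mt-Nd2 and mt-Nd4 were higher in CD34+ cells in both conditions and mt-Nd1 under N1-AcSpd. mt-Nd2 (chrM, 3914 to 4951) measured 143.8, 156.5, 151.9 and 153.6 CPM in untreated and 134.1, 124.8, 135.4 and 134.1 CPM in N1-AcSpd CD34− libraries, and 165.0, 160.3, 162.7 and 167.0 CPM in untreated and 154.3, 152.5, 153.4 and 155.5 CPM in N1-AcSpd CD34+ libraries. Treated and untreated libraries did not overlap in either cell type. Its log2 fold change with N1-AcSpd was -0.20 in CD34− cells (SE 0.032, edgeR adjusted p 0.0188) and -0.089 in CD34+ cells (SE 0.032, adjusted p 0.266). The CD34− call was lost without the CD34− N1-AcSpd sample of mouse 2 or 4, the CD34− untreated sample of mouse 3, or any whole mouse (log2 -0.23 to -0.16, adjusted p 0.0549 to 0.176). The difference of both effects was 0.11 on the log2 scale (SE 0.046, edgeR unadjusted p 0.0336, adjusted p 1.0).

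Between cell types mt-Nd2 was higher in CD34+ cells by 0.11 untreated (SE 0.032, adjusted p 0.0163) and by 0.22 under N1-AcSpd (SE 0.032, adjusted p 0.000133). The untreated call was lost without the CD34− untreated sample of mouse 1, the CD34+ untreated sample of mouse 4, or mouse 1, 3 or 4 (log2 0.085 to 0.12). mt-Nd4 rose from 547 ± 14 to 646 ± 42 CPM untreated and from 478 ± 30 to 578 ± 15 CPM under N1-AcSpd (log2 0.24 and 0.27, adjusted p 0.00191 and 0.000613). With N1-AcSpd in CD34− cells its log2 fold change of -0.20 had an adjusted p of 0.0939 without and 0.0329 with the mouse as a block. mt-Nd1 was at 748 ± 53 CPM in CD34− and 873 ± 84 CPM in CD34+ cells under N1-AcSpd (log2 0.22, SE 0.067, adjusted p 0.0186). That call was lost without the CD34− N1-AcSpd sample of mouse 2 or 4, the CD34+ N1-AcSpd sample of mouse 3, or mouse 1, 3 or 4 (log2 0.17 to 0.24).

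The other 4 mitochondrial complex I subunits were not called in any comparison. mt-Nd5 measured 45.3 ± 1.7 and 38.5 ± 0.82 CPM in untreated and N1-AcSpd CD34− cells and 48.9 ± 2.3 and 41.9 ± 3.4 CPM in CD34+ cells, without overlap between treated and untreated libraries of either cell type (log2 -0.23 and -0.22, SE 0.054 each, edgeR adjusted p 0.0725 and 0.104). mt-Nd3 ran from 63.6 to 88.7 CPM, mt-Nd4l from 18.3 to 25.8 CPM and mt-Nd6, the one mitochondrial member encoded on the other strand, from 4.86 to 8.53 CPM over the 16 libraries. For mt-Nd3 the N1-AcSpd CD34− libraries (63.6 to 75.56 CPM) lay just under the untreated ones (75.62 to 88.7 CPM, log2 -0.20, SE 0.087, adjusted p 0.332).

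mt-Cytb, the mitochondrial subunit of complex III that holds its quinone sites, measured 2477 ± 96 and 2391 ± 149 CPM in untreated and N1-AcSpd CD34− cells and 2752 ± 180 and 2739 ± 172 CPM in CD34+ cells. It was higher in CD34+ cells under N1-AcSpd (log2 0.20, SE 0.057, edgeR adjusted p 0.0158), a call lost without the CD34− N1-AcSpd sample of mouse 2, the CD34+ N1-AcSpd sample of mouse 3, or mouse 3 or 4 (log2 0.16 to 0.21). Untreated, its log2 fold change of 0.15 had an adjusted p of 0.0555 without and 0.00317 with the mouse as a block. Under treatment its log2 fold changes were -0.051 and -0.0067.

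In complex V, mt-Atp6, which forms the proton channel with the ring of c subunits, rose from 1101 ± 50 to 1256 ± 40 CPM between untreated CD34− and CD34+ cells and from 1006 ± 63 to 1159 ± 44 CPM under N1-AcSpd (log2 0.19 and 0.20, SE 0.046 each, edgeR adjusted p 0.00581 and 0.00331). Without mouse 3 the N1-AcSpd call was lost (log2 0.17, adjusted p 0.0584). Under treatment its log2 fold changes of -0.13 and -0.12 had adjusted p of 0.220 and 0.303, and with the mouse as a block it was called in CD34− cells (0.0329). Its overlapping neighbour mt-Atp8 stood at 31.7 ± 0.91 and 30.7 ± 3.5 CPM in untreated and N1-AcSpd CD34− cells. In CD34+ cells mt-Atp8 stood at 31.7 ± 2.5 and 30.8 ± 2.2 CPM. Its log2 fold changes between cell types were -0.0015 and 0.0029 (SE 0.078 each). Whether mt-Atp6 and mt-Atp8, which overlap, differ in their RNA was not tested.

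Counted over the mitochondrial genes, 6 of 13 were called higher in CD34+ cells untreated and 8 of 13 under N1-AcSpd, and 0 were called lower. These are 46.2% and 61.5% called higher, beside 16.1% and 16.5% of all genes. On library totals, 9 and 10 were called higher, beside 25.5% and 25.2% of all genes. Without overlap between cell types, 6 were higher untreated and 5 under N1-AcSpd, beside 15.9% and 16.1% of all genes. With N1-AcSpd 13 of 13 had a log2 fold change below 0 in CD34− and 10 of 13 in CD34+ cells, with medians of -0.20 and -0.068 beside 0.00012 and -0.014 over all genes. Treated libraries lay wholly below untreated ones for 7 of 13 genes in CD34− and 4 of 13 in CD34+ cells, beside 4.13% and 3.44% of all genes. The median was lowest for the complex IV subunits (-0.29 and -0.25) and was -0.20 and -0.068 for complex I, while mt-Cytb stood at -0.051 and -0.0067. As these genes share precursor RNAs and, in part, counts, they are not independent of each other. Fit with the mouse as a block, mt-Nd2, mt-Nd4, mt-Co1, mt-Co3 and mt-Atp6 were called lower in CD34− and mt-Co1 and mt-Co3 in CD34+ cells, in a fit that also called more of all genes (1.83% and 0.798%).

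**Figure D2:**
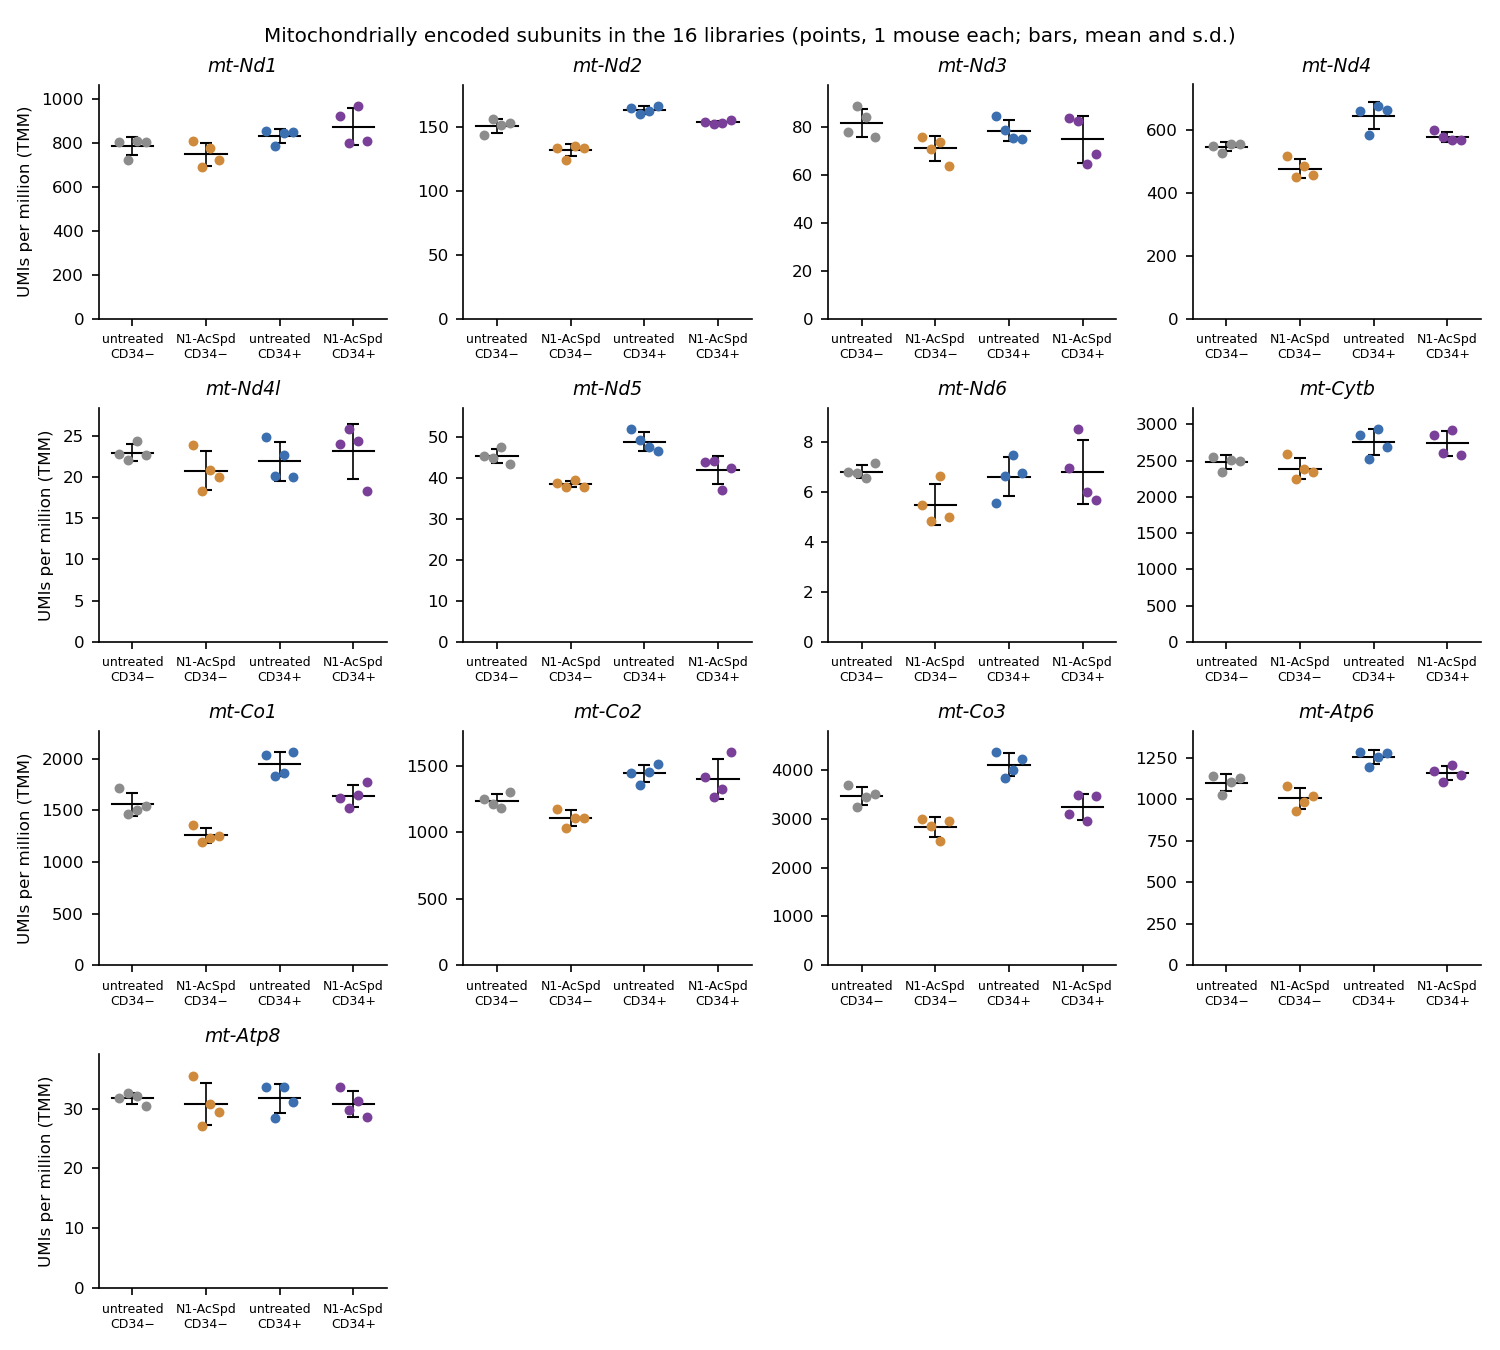
Level of the 13 mitochondrial genes in CPM (linear axes from 0, a separate axis for each gene) in the 4 groups; points are libraries of 1 mouse each and bars the mean and SD of 4. mt-Co1 and mt-Co3 show the 4 N1-AcSpd libraries below the 4 untreated ones in each cell type, and mt-Atp8 shows groups at the same level.

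On the TMM scale the summed levels of the nuclear genes overlapped between the 4 groups. Over 94 genes they were 14980 ± 535 and 14640 ± 118 CPM in untreated and N1-AcSpd CD34− cells and 14890 ± 251 and 14980 ± 349 CPM in CD34+ cells. Without that scaling their share of UMIs, given above, separated the cell types, and on library totals the median log2 fold change of the nuclear genes between cell types was 0.13 in place of 0.012 untreated and 0.15 in place of 0.034 under N1-AcSpd. The group means of the nuclear sums ran from 4452 to 4592 CPM for complex I and 1542 to 1628 CPM for complex III. They ran from 3395 to 3573 CPM for complex IV and 4804 to 4916 CPM for complex V. The complex III sums include Uqcrh. Within each group this gene lay at 203.1 to 222.9 CPM in some libraries and at 292.7 to 320.4 CPM in others. The sum of the 4 complex II genes was 205 ± 6.9 and 208 ± 2.9 CPM in CD34− and 220 ± 5.5 and 231 ± 0.89 CPM in CD34+ cells, untreated and N1-AcSpd, and the CD34− libraries (197 to 212.5 CPM) met the untreated CD34+ ones (212.4 to 225 CPM) at their ends.

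**Figure D3:**
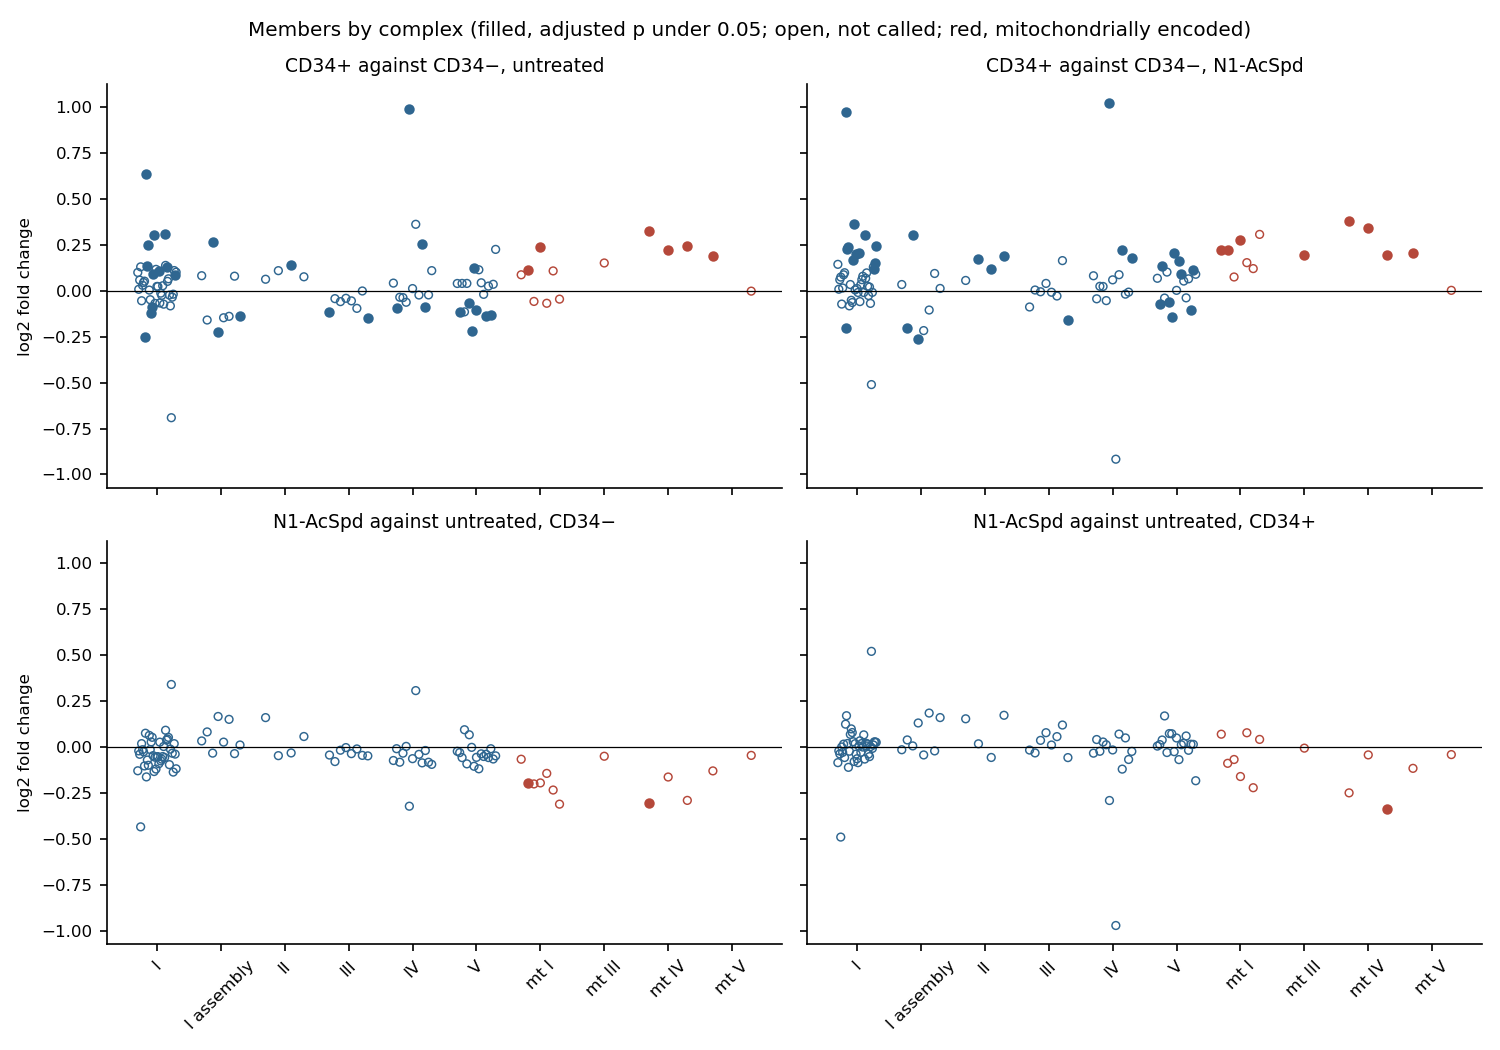
Log2 fold change of the 104 tested genes by complex, nuclear (blue) and mitochondrial (red), in 4 comparisons; each point is a gene, filled where its edgeR adjusted p was under 0.05. The mitochondrial genes lie mostly above 0 between cell types and below 0 under N1-AcSpd, and the nuclear genes lie on both sides.

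By symbol 41 nuclear genes were placed in complex I. In CD34+ cells 9 of them were higher and 3 lower untreated, and 11 higher and 1 lower under N1-AcSpd. That is 29.3% called each time beside 32.1% and 33.3% of all genes. These 41 include Ndufa4, the 1 gene lower under N1-AcSpd, its paralogue Ndufa4l2 and the pseudogenes Ndufa11b, Ndufb4c and Ndufs6b. The pair Ndufa4 and Ndufa4l2 went opposite ways. Ndufa4 (chr6, 11900292 to 11907497, minus strand), named for complex I and now known as a subunit of complex IV, measured 310.4, 302.7, 326.9 and 327.0 CPM in untreated CD34− and 259.1, 272.5, 262.0 and 269.3 CPM in untreated CD34+ libraries. Under N1-AcSpd it measured 313.5, 322.0, 358.6 and 340.1 CPM in CD34− and 282.4, 277.5, 322.5 and 275.8 CPM in CD34+ libraries. The CD34+ libraries were lower in 4 of 4 mice each time, without overlap when untreated. Its log2 fold changes were -0.25 (SE 0.053, edgeR adjusted p 0.00229) and -0.20 (SE 0.053, adjusted p 0.00849), and on library totals -0.14 and -0.087 with the calls lost (adjusted p 0.0644 and 0.249). The N1-AcSpd call was also lost without mouse 4 (log2 -0.17).

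Its paralogue Ndufa4l2 (chr10, 127514967 to 127517154, plus strand), a gene known to be induced by hypoxia, measured 13.03, 12.8, 13.3 and 12.3 CPM in untreated CD34− and 20.6, 17.0, 19.2 and 23.2 CPM in untreated CD34+ libraries. With N1-AcSpd it measured 13.3, 10.6, 9.96 and 12.1 CPM in CD34− and 20.7, 18.9, 22.3 and 28.2 CPM in CD34+ libraries. All 8 CD34+ libraries lay above all 8 CD34− libraries. The log2 fold changes were 0.64 (1.56-fold, SE 0.13, edgeR adjusted p 0.00149) and 0.97 (1.96-fold, SE 0.13, adjusted p 4.55e-05). Ndufa4l2 overlaps Shmt2 on the opposite strand. The difference of the cell type effects, 0.33, did not pass (SE 0.18, adjusted p 1.0).

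Complex I subunits called higher in CD34+ cells in both conditions were Ndufa5, Ndufa6, Ndufb5, Ndufb10, Ndufb11, Ndufc2 and Ndufv2. Of these Ndufv2 belongs to the NADH-oxidizing module and the others are accessory subunits. Ndufb11 had log2 fold changes of 0.31 and 0.36 and Ndufc2 of 0.31 and 0.30. Ndufb5, an accessory subunit of the membrane arm, rose from 108 ± 3.0 to 117 ± 1.7 CPM untreated and from 101.5 ± 2.0 to 117 ± 2.4 CPM under N1-AcSpd (log2 0.11 and 0.20, SE 0.028 each, adjusted p 0.00821 and 6.78e-05). Without mouse 1 or mouse 2 its untreated call was lost (log2 0.084 to 0.11). In the treatment comparison of CD34− cells it had the smallest p of the nuclear complex I genes (log2 -0.091, SE 0.028, edgeR unadjusted p 0.00557, adjusted p 0.152).

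Ndufab1, the acyl carrier protein of mitochondria, was called lower in untreated CD34+ cells (169 ± 1.5 to 159 ± 1.9 CPM, log2 -0.090, SE 0.028, edgeR adjusted p 0.0251), a call lost without the CD34− untreated sample of mouse 1 or 4 or any whole mouse (log2 -0.098 to -0.084, adjusted p 0.0519 to 0.0997). Its direction turned on library totals (log2 0.026). The pseudogenes Ndufs6b and Ndufa11b were at 0 in some libraries and at 8.995 to 10.99 and 3.898 to 4.848 CPM in the others, and their log2 fold changes in the 4 comparisons of groups (SE from 0.88 to 1.31) passed no test.

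Of the 8 assembly factors of complex I, 1 was higher and 2 lower in each cell type comparison. That is 37.5% called each time, beside 32.1% of all genes untreated and 33.3% under N1-AcSpd. Ndufaf3 rose from 25.3 ± 2.0 to 30.5 ± 1.5 CPM untreated and from 24.8 ± 1.3 to 30.6 ± 0.82 CPM under N1-AcSpd (log2 0.27 and 0.31, SE 0.057 each, edgeR adjusted p 0.00271 and 0.000882), without overlap. Ndufaf3 overlaps Impdh2 on the opposite strand. Its partner in assembly Ndufaf4 fell from 17.0 ± 0.81 to 14.5 ± 1.2 CPM and from 19.1 ± 0.59 to 15.9 ± 1.4 CPM (log2 -0.23 and -0.26, SE 0.069 each, adjusted p 0.0212 and 0.00880), also without overlap. On library totals the calls of Ndufaf4 were lost (log2 -0.11 and -0.15). The untreated one was lost without the CD34+ sample of mouse 1 or 4, the CD34− sample of mouse 2 or 4, or mouse 1, 2 or 4 (log2 -0.25 to -0.17), and the N1-AcSpd one without mouse 2 or 4 (log2 -0.24 to -0.20).

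Ndufaf8 was at 36.2 ± 0.40, 36.5 ± 1.7, 33.0 ± 0.73 and 36.8 ± 1.0 CPM in untreated and N1-AcSpd CD34− and untreated and N1-AcSpd CD34+ cells. It was thus lower in untreated CD34+ cells (log2 -0.14, SE 0.035, edgeR adjusted p 0.00797) and level under N1-AcSpd (log2 0.013). Its log2 fold change with N1-AcSpd in CD34+ cells was 0.16, higher in 4 of 4 mice without overlap (SE 0.035, adjusted p 0.0767). The untreated call was lost on library totals (log2 -0.022) and without mouse 2 or 4 (log2 -0.14 to -0.12).

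In complex II, 1 of 4 genes was called higher in untreated and 3 of 4 in N1-AcSpd CD34+ cells. Over all genes 16.1% and 16.5% were called higher. Sdhd (chr9, 50596357 to 50603812, minus strand), a membrane anchor subunit, measured 53.1, 52.6, 52.5 and 53.4 CPM in untreated and 52.1, 57.1, 55.0 and 56.0 CPM in N1-AcSpd CD34− libraries. In CD34+ cells it measured 56.4, 55.4, 57.9 and 53.6 CPM untreated and 59.99, 65.3, 62.8 and 63.5 CPM with N1-AcSpd. The N1-AcSpd CD34+ libraries lay above all others. The log2 fold change between cell types was 0.19 under N1-AcSpd (SE 0.036, edgeR adjusted p 0.000881) and 0.077 untreated (SE 0.036, adjusted p 0.127). With N1-AcSpd in CD34+ cells it was 0.17, higher in 4 of 4 mice (SE 0.036, adjusted p 0.0676), and DESeq2 called it (adjusted p 0.00192).

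The other anchor subunit, Sdhc, rose from 39.8 ± 0.54 to 43.9 ± 0.79 CPM untreated and from 38.9 ± 0.92 to 42.2 ± 2.1 CPM under N1-AcSpd (log2 0.14 and 0.12, SE 0.035 each, edgeR adjusted p 0.00624 and 0.0180). Sdhb, the iron-sulphur subunit, was at 76.5 ± 4.4 and 82.5 ± 2.6 CPM untreated and rose from 74.0 ± 3.2 to 83.5 ± 5.1 CPM under N1-AcSpd (log2 0.17, SE 0.052, adjusted p 0.0185), and its untreated log2 fold change of 0.11 was called with the mouse as a block (adjusted p 0.129 without and 0.0480 with it). The N1-AcSpd call of Sdhc was lost without the CD34− sample of mouse 3, the CD34+ sample of mouse 4, or mouse 1, 2 or 4 (log2 0.083 to 0.13) and its untreated call without mouse 1 (log2 0.13), and that of Sdhb without the CD34+ sample of mouse 3, the CD34− sample of mouse 4, or mouse 1, 3 or 4 (log2 0.14 to 0.17). Sdha, the flavoprotein that oxidizes succinate, was at 36.2 ± 3.1 and 37.8 ± 1.2 CPM in untreated and 40.5 ± 1.2 and 42.1 ± 2.9 CPM in N1-AcSpd CD34− and CD34+ cells. Its log2 fold changes with N1-AcSpd of 0.16 and 0.15 had the same sign in 4 of 4 mice of each cell type and did not pass the test (SE 0.060 each, adjusted p 0.253 and 0.298).

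In complex III, 0 of 8 nuclear genes were called higher in CD34+ cells, and 2 were lower untreated and 1 under N1-AcSpd. Of all genes 16.1% were higher and 16.1% lower untreated, and 16.5% and 16.8% under N1-AcSpd. Uqcrq, a small subunit near the quinone site, fell from 399.6 ± 21 to 360 ± 4.9 CPM untreated and from 386 ± 14 to 346 ± 15 CPM under N1-AcSpd (log2 -0.15 and -0.16, SE 0.040 each, edgeR adjusted p 0.0115 and 0.00746), without overlap. On library totals the log2 fold changes were -0.034 and -0.042 and the calls were lost, as was the untreated one without mouse 1 or 3 (log2 -0.14 to -0.13). Uqcr10 fell from 249 ± 12 to 229.6 ± 8.6 CPM untreated (log2 -0.12, SE 0.041, adjusted p 0.0462). That call was lost without any of 10 single libraries, namely the CD34− untreated sample of mouse 1, 3 or 4, the CD34+ untreated sample of mouse 2 or 4, the CD34− N1-AcSpd sample of any mouse and the CD34+ N1-AcSpd sample of mouse 2, or without any whole mouse (log2 -0.15 to -0.086), and its log2 fold change on library totals was -0.00031. Under treatment the smallest p were those of Uqcr11 in CD34− (274 ± 16 and 259 ± 3.6 CPM, log2 -0.080, adjusted p 0.434) and of Uqcrc1, a core subunit, in CD34+ cells (113 ± 4.2 and 119 ± 7.1 CPM, log2 0.077, adjusted p 0.486). For the difference of the cell type effects it was that of Uqcrb (log2 0.054, adjusted p 1.0).

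By symbol 13 tested nuclear genes were placed in complex IV. In CD34+ cells 2 of them were higher and 2 lower untreated, and 3 higher and 0 lower under N1-AcSpd (30.8% and 23.1% called). Ndufa4, called lower in both conditions, was counted under complex I and is not among them. Among all genes 32.1% and 33.3% were called in these comparisons. Cox6b2, the isoform of Cox6b1 known from testis, measured 0.860, 1.15, 0.736 and 0.586 CPM in untreated CD34− and 1.251, 1.75, 2.22 and 1.39 CPM in untreated CD34+ libraries. With N1-AcSpd it measured 0.619, 0.674, 0.532 and 0.820 CPM in CD34− and 1.56, 1.20, 1.23 and 1.41 CPM in CD34+ libraries. All CD34+ libraries lay above all CD34− libraries, at these low levels. The log2 fold changes were 0.99 (1.99-fold, SE 0.23, edgeR adjusted p 0.00474) and 1.02 (2.03-fold, SE 0.23, adjusted p 0.00355), and without mouse 3 the untreated call was lost (log2 0.76, adjusted p 0.0612). Cox6b1, which most tissues use, was at 399 ± 13 and 400.1 ± 4.9 CPM in CD34− and 382.5 ± 5.0 and 386 ± 13 CPM in CD34+ cells (log2 -0.062 and -0.053, adjusted p 0.111 and 0.170).

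Cox7a2l, a protein that joins complexes III and IV into supercomplexes, measured 161.4, 145.2, 154.1 and 134.3 CPM in untreated CD34− and 182.7, 177.6, 182.0 and 167.7 CPM in untreated CD34+ libraries. With N1-AcSpd it measured 146.4, 139.2, 140.1 and 134.6 CPM in CD34− and 168.2, 163.3, 155.7 and 165.8 CPM in CD34+ libraries. CD34+ libraries were higher in 4 of 4 mice each time without overlap (log2 0.25 and 0.22, SE 0.051 each, edgeR adjusted p 0.00179 and 0.00422). Its relative Cox7a2, a subunit of complex IV itself, was at 271 ± 13 and 267 ± 14 CPM untreated and 263 ± 5.5 and 280.0 ± 9.4 CPM under N1-AcSpd, where its log2 fold change of 0.088 was called with the mouse as a block (adjusted p 0.133 without and 0.0289 with it). The muscle and heart isoforms Cox7a1 and Cox6a2 reached at most 0.217 CPM in any library.

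Cox8a, a small subunit, was at 660 ± 36 and 712 ± 29 CPM untreated (log2 0.11, adjusted p 0.0745, and 0.0294 with the mouse as a block) and rose from 617.5 ± 11 to 700.0 ± 38 CPM under N1-AcSpd (log2 0.18, SE 0.044, edgeR adjusted p 0.00582, lost without mouse 4 at log2 0.15). Cox4i1, the ubiquitous regulatory subunit, was at 472 ± 18 and 486 ± 14 CPM untreated and 449 ± 7.4 and 475 ± 25 CPM under N1-AcSpd, where the block gave an adjusted p of 0.0281 and the fit without it 0.117 (log2 0.082). Cox6a1 stood between 178 and 183 CPM in all 4 group means. Cox5a fell from 184.5 ± 3.5 to 173 ± 4.7 CPM untreated (log2 -0.093, SE 0.029, adjusted p 0.0237), a call lost without the CD34− sample of mouse 1 or 3, the CD34+ sample of mouse 1 or 4, or mouse 1, 2 or 4 (log2 -0.11 to -0.081), and turned on library totals (log2 0.021). The pseudogene Cox6c2 was at 0 in 3 libraries and at 66.06 to 77.68 CPM in the other 13, and its log2 fold changes had SE from 1.54 to 1.55 in these comparisons and were not called.

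In complex V, 1 of 17 nuclear genes was higher and 6 lower in untreated CD34+ cells, and 5 were higher and 4 lower under N1-AcSpd (41.2% and 52.9% called). The shares of all genes called were 32.1% untreated (16.1% higher and 16.1% lower) and 33.3% under N1-AcSpd (16.5% and 16.8%). Atp5g1, Atp5g2 and Atp5g3 encode the same mature c subunit, whose ring turns in the membrane, behind different import sequences. Atp5g1 measured 400.1, 390.7, 401.2 and 381.0 CPM in untreated CD34− and 324.4, 357.8, 336.4 and 335.4 CPM in untreated CD34+ libraries, and 395.6, 388.3, 388.9 and 397.6 CPM in N1-AcSpd CD34− and 357.5, 336.4, 384.6 and 344.7 CPM in N1-AcSpd CD34+ libraries. It was lower in CD34+ libraries without overlap. The log2 fold changes were -0.22 (SE 0.040, edgeR adjusted p 0.000872) and -0.14 (SE 0.039, adjusted p 0.0126).

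Atp5g2 measured 184.8, 178.3, 184.3 and 169.0 CPM in untreated CD34− and 199.6, 192.5, 195.4 and 194.1 CPM in untreated CD34+ libraries, and 168.7, 162.3, 169.9 and 165.0 CPM in N1-AcSpd CD34− and 198.4, 186.0, 185.2 and 198.1 CPM in N1-AcSpd CD34+ libraries. It was higher in CD34+ libraries without overlap (log2 0.13 and 0.21, SE 0.034 each, edgeR adjusted p 0.0122 and 0.000377). Atp5g3 fell from 395 ± 8.6 to 368 ± 7.7 CPM untreated (log2 -0.10, SE 0.023, adjusted p 0.00408) and was at 379.6 ± 3.9 and 380.3 ± 8.2 CPM under N1-AcSpd (log2 0.0028). The 3 genes of the same subunit thus did not move together between cell types. On library totals Atp5g2 kept its calls, those of Atp5g1 were lost (log2 -0.10 and -0.025) and the untreated change of Atp5g3 turned (log2 0.012). Without mouse 2 or 4 the untreated call of Atp5g2 was lost (log2 0.102 to 0.13), and without the CD34+ N1-AcSpd sample of mouse 1, or mouse 1, 2 or 4, the N1-AcSpd call of Atp5g1 was lost (log2 -0.14 to -0.12).

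The promoters of these 3 genes are shown because the genes code for the same subunit and differ between cell types. Given are the 250 bases before the RefSeq start (GRCm38.p6), 5′ to 3′ on the gene's strand, with matches to TGCGCA, the core of the binding motif of nuclear respiratory factor 1 (NRF1), and to CGGAAG or its reverse complement CTTCCG, the core of the motif of ETS factors such as GABP, in capitals. The windows are chr11:96075632-96075881, chr15:102671048-102671297 and chr2:73911327-73911576, all on the minus strand, and that of Atp5g2 lies within the gene as GENCODE draws it, with 80 of its bases in exons, as do 39 bases of that of Atp5g1.
Atp5g1: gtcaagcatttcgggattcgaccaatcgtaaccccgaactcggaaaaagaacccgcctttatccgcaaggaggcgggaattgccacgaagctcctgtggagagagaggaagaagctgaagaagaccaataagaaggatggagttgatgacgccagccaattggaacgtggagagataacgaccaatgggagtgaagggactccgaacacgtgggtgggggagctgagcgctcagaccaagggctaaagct
Atp5g2: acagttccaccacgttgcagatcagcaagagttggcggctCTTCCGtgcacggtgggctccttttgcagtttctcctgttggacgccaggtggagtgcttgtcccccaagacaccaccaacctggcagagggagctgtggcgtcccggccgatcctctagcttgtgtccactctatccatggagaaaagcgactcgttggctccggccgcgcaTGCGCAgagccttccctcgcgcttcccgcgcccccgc
Atp5g3: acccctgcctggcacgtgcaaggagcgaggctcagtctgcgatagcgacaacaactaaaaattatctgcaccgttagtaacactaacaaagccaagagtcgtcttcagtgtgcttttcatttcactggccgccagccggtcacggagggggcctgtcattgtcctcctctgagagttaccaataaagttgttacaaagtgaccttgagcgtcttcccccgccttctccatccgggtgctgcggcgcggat
Atp5g2 held 1 match to each motif, at 37 bases (NRF1) and 210 bases (ETS) before the start, and Atp5g1 and Atp5g3 held 0.

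Both motifs were frequent among the pathway's promoters. RefSeq promoters of 300 bases (from 250 before to 50 after the start) were found for 73 of 94 nuclear genes, 78 promoters in all. TGCGCA, which reads the same on both strands, was in 24.4% of them and in 7.8% of all 32851 promoters, and CGGAAG on either strand in 42.3% and 16.9%. AAGATGG, the core of the YY1 motif, was in 14.1% and 6.3% on either strand, and TATAA, the core of the TATA box, in 14.1% and 24.9%. CGGAAG and AAGATGG share the letters AAG and can overlap, and a match is a match of letters only. By call in untreated cells TGCGCA was present for 4 of 11 genes higher, 2 of 12 lower and 12 of 48 not called, and CGGAAG for 3, 5 and 24 of these. Under N1-AcSpd TGCGCA was present for 5 of 21 higher, 1 of 5 lower and 12 of 45 not called, and CGGAAG for 9, 1 and 22.

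**Figure D4:**
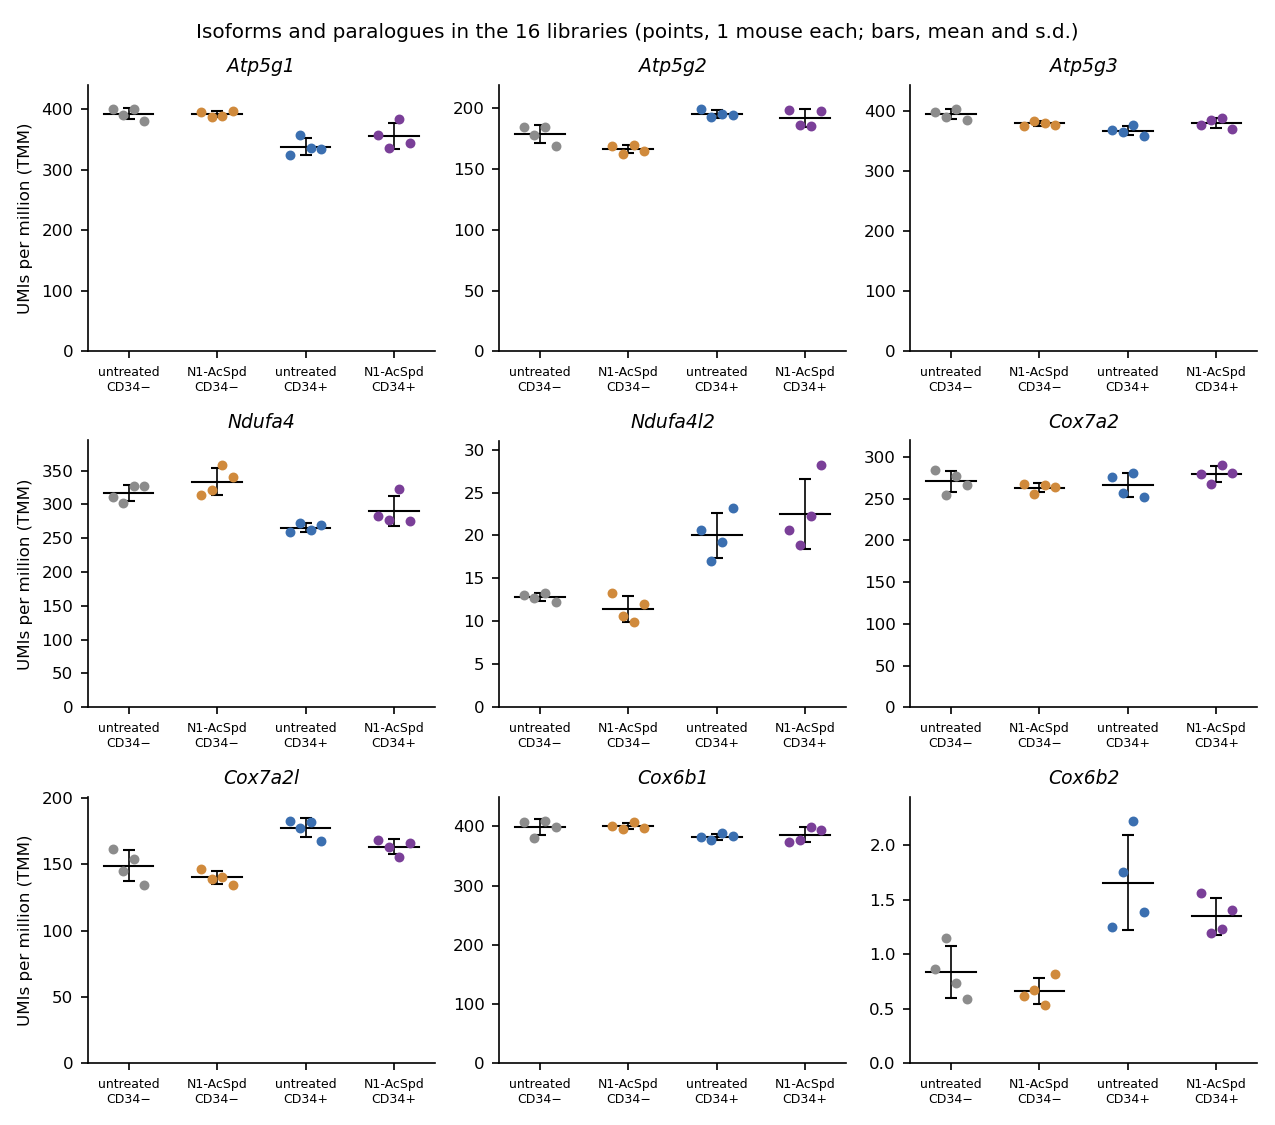
Level in CPM (linear axes from 0, a separate axis for each gene) of isoforms and paralogues in the 4 groups; points are libraries of 1 mouse each and bars the mean and SD of 4. Atp5g1 and Ndufa4 stand lower and Atp5g2, Ndufa4l2, Cox7a2l and Cox6b2 higher in CD34+ than in CD34− libraries, on the TMM scale.

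Other complex V genes called in both conditions were Atp5b, Atp5f1 and Atp5mpl, each lower in CD34+ cells on the TMM scale. Atp5b is the catalytic beta subunit, Atp5f1 the b subunit of the peripheral stalk and Atp5mpl a small protein. On library totals 0 of the 17 nuclear complex V genes were called lower in either condition. Under N1-AcSpd only 1 of them, Atp5g1, lay below 0 on that scale. Atp5f1 fell from 240.2 ± 3.9 to 229 ± 4.3 CPM untreated and from 251.5 ± 1.7 to 241 ± 2.8 CPM under N1-AcSpd (log2 -0.069 and -0.062, SE 0.021 each, edgeR adjusted p 0.0232 and 0.0361). It also stood higher with N1-AcSpd in each cell type without overlap, by log2 0.066 and 0.073, which did not pass (adjusted p 0.176 and 0.178) but was called by DESeq2 (adjusted p 0.0252 and 0.00399). Its cell type changes turned on library totals (log2 0.046 and 0.055). The untreated call was lost without the CD34− sample of mouse 1 or 2, the CD34+ sample of mouse 1 or 4, or mouse 1, 2 or 4 (log2 -0.072 to -0.057), and the N1-AcSpd one without any CD34− N1-AcSpd sample, the CD34+ N1-AcSpd sample of mouse 1, 2 or 4, the CD34+ untreated sample of mouse 3 or 4, or any whole mouse (log2 -0.072 to -0.043). Under N1-AcSpd Atp5c1, Atp5h, Atp5j and Atp5o, of the central and peripheral stalks, were called higher with Atp5g2, by log2 0.09 to 0.16 without it.

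With N1-AcSpd 0 of 91 nuclear genes were called in either cell type by edgeR, with the mouse as a block or without it. At an unadjusted p under 0.05 there were 15 in CD34− (3 higher and 12 lower) and 9 in CD34+ cells (8 higher and 1 lower). Of all genes 13.6% and 13.2% had such a p. DESeq2 called 3 and 5 of the nuclear genes, beside 2.96% and 2.25% of all genes. The median log2 fold change of the nuclear genes was -0.038 in CD34− and 0.011 in CD34+ cells, beside 0.00012 and -0.014 over all genes. In CD34− cells 66 of 91 lay below 0, in complex III 8 of 8, in complex V 15 of 17 and in complex IV 11 of 13, and in CD34+ cells 39 of 91 did. 33 genes lay below 0 in both cell types and 19 above 0 in both. Besides those named above, the smallest p by complex belonged to Ndufaf4 for the assembly factors in CD34− cells (log2 0.17, adjusted p 0.306), to Cox8a and Cox7a2l for complex IV (CD34− log2 -0.095, adjusted p 0.367, and CD34+ log2 -0.12, adjusted p 0.338) and to Ndufab1 for complex I in CD34+ cells (log2 0.078, adjusted p 0.259).

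For the difference of the cell type effects, 81 of 104 genes had a value above 0, with a median of 0.046 beside -0.0076 over all genes, and 0 were called. The smallest p by complex were those of Atp5g3 (log2 0.11, SE 0.033, edgeR unadjusted p 0.00697), Ndufaf8 (log2 0.15, SE 0.049, unadjusted p 0.00893), Ndufb5 (log2 0.096, unadjusted p 0.0286), Sdhd (log2 0.12, unadjusted p 0.0397) and Cox7a2 (log2 0.11, unadjusted p 0.0864), each with an adjusted p of 1.0 and above 0 in 4 of 4 mice. This comparison shares all its libraries with the other 4.

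Among genes that act around the complexes, lists of carriers, assembly factors, enzymes of pyruvate entry and the TCA cycle, and factors of mitochondrial DNA expression were followed. Their counts stand beside 16.1% of all genes higher and 16.1% lower in untreated, and 16.5% and 16.8% in N1-AcSpd, CD34+ cells. Levels, fold changes and calls of these list genes are on the TMM scale. Their values on library totals, with the mouse as a block or by DESeq2 were not followed. Of 16 electron carrier genes 6 were higher and 2 lower in untreated and 6 higher and 1 lower in N1-AcSpd CD34+ cells. Cycs, the somatic cytochrome c, fell from 360 ± 14 to 307 ± 14 CPM untreated (log2 fold change -0.23, SE 0.051, adjusted p by edgeR 0.00334) and from 374 ± 2.8 to 330.3 ± 27 CPM under N1-AcSpd (log2 -0.18, adjusted p 0.0150). Coq8a, which serves ubiquinone synthesis, had log2 fold changes of 1.03 and 1.03. The median log2 fold change of this list was 0.052 and 0.075.

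Assembly factors outside the Ndufaf genes were called higher and lower in 1 and 0 of 10 (complex I), 1 and 0 of 4 (complex II), 3 and 0 of 6 (complex III), 4 and 2 of 25 (complex IV) and 2 and 1 of 5 genes (complex V) in untreated CD34+ cells. Under N1-AcSpd the numbers were 1 and 0, 1 and 1, 3 and 0, 2 and 1, and 2 and 1. Lyrm7, a factor that handles the iron-sulphur protein of complex III, had the highest called value untreated (log2 0.45), and Atpaf1, which assembles the beta subunits of complex V, under N1-AcSpd (log2 0.57). With N1-AcSpd none of these assembly factors was called in CD34− cells. In CD34+ cells 1 was called, Atpaf2, the factor for the alpha subunit, beside 0.325% of all genes called. Atpaf2 stood at 31.6 ± 1.4 CPM untreated and 37.4 ± 1.7 CPM with N1-AcSpd (log2 fold change 0.24, SE 0.043, adjusted p by edgeR 0.0392). Whether this call holds with a library or mouse left out was not followed.

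Of 24 tested genes of pyruvate entry and the TCA cycle 5 were higher and 2 lower in untreated and 7 higher and 3 lower in N1-AcSpd CD34+ cells, with medians of 0.013 and 0.061. Mpc1, a subunit of the mitochondrial pyruvate carrier that was picked after its values were seen, rose from 37.4 ± 1.5 to 63.5 ± 3.4 CPM and from 36.0 ± 1.2 to 63.0 ± 2.4 CPM (log2 0.76 and 0.81, SE 0.045 each, edgeR adjusted p 1.85e-07 and 7.09e-08). Among the called genes of this list Pdk2, a kinase that shuts off pyruvate dehydrogenase, had the highest values (log2 1.29 and 1.49) and Cs, citrate synthase, the lowest (log2 -0.37 and -0.28). Of 20 genes of mitochondrial biogenesis and DNA expression 3 were higher and 0 lower untreated and 7 higher and 1 lower under N1-AcSpd (medians 0.10 and 0.15). The highest called value was that of Mterf4, a factor of mitochondrial ribosome assembly, untreated (log2 0.50) and of Tfb1m, which methylates mitochondrial ribosomal RNA, under N1-AcSpd (log2 0.44), where the coactivator Pprc1 was the gene called lower (log2 -0.36). No gene of either list was called under treatment.

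Of 8 tested carrier and uncoupling genes 4 were higher and 2 lower in untreated and 4 higher and 1 lower in N1-AcSpd CD34+ cells (medians 0.067 and 0.097). Ucp2, an inner membrane carrier of the uncoupling protein family, rose from 8.55 ± 0.49 to 15.1 ± 0.60 CPM and from 8.33 ± 0.82 to 13.97 ± 1.6 CPM (log2 0.82 and 0.74, SE 0.084 each, edgeR adjusted p 6.35e-06 and 1.25e-05). Slc25a3, the phosphate carrier, fell from 202 ± 2.4 to 174 ± 3.6 CPM and from 196 ± 2.2 to 179.5 ± 2.8 CPM (log2 -0.21 and -0.13, adjusted p 9.45e-06 and 0.000580), and Ckmt1, a mitochondrial creatine kinase, had the lowest untreated value (log2 -0.22). With N1-AcSpd in CD34+ cells Slc25a4, an ADP/ATP carrier, was called lower, beside 0.136% of all genes. It stood at 12.8 ± 0.88 CPM untreated and 9.71 ± 0.55 CPM with N1-AcSpd (log2 fold change -0.40, SE 0.078, adjusted p by edgeR 0.0485). This call near the threshold was not followed with a library or mouse left out either.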

How the data were processed

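RNA of 16 libraries was counted by the authors. They separated reads by barcode and UMI with FLEXBAR, placed the second read on mm10 with Kallisto (0.45.0 in the submitters' processing notes), used BEDTools to assign tags to genes, and in R counted the unique UMIs of each gene. The deposited values are these counts, not normalized. The annotation release is not given in the sources used here. The 156050 empty cells were read as 0, and identifiers without a symbol held 0.125% of counts. Groups and mice came from the labels, in which a replicate number is 1 mouse in all 4 groups.

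The 19049 genes whose count averaged 5 or more entered edgeR 4.0.16 (R 4.3.3) with TMM scaling, quasi-likelihood tests and 1 mean per group over all 16 libraries. The SE was taken from the absolute log2 fold change over the root of F. Tests were two-sided and adjusted over all genes. DESeq2 (1.42.0), other scalings and filters, a mouse block, thinning and leaving out libraries or mice were alternatives. Deviations of same-mouse libraries from their group means correlated with a mean r of 0.028 (-0.112 to 0.128, 24 pairs). For libraries of different mice in different groups the mean r was -0.0093 (-0.135 to 0.167, 72 pairs), a range that covers that of the same-mouse pairs. Counts of libraries of a group differed beyond sampling noise in every pair (chi-square over its degrees of freedom 25.4 or more).

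Members, lists and the naming rule were chosen with earlier results of these data known. Named were all mitochondrial and Sdh genes, isoform groups, members called under treatment and, by comparison and complex, the called nuclear genes of mean count at least 50 with the highest and lowest log2 fold change, or else the smallest p. Other called genes were listed after their values were seen. Symbols and positions came from GENCODE on GRCm38, promoters from RefSeq on GRCm38.p6.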

Additional observations from a re-analysis of the deposited data

Results flagged for a closer look

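In 6 of the 212 groups of 4 libraries checked (chance gives about 1 in 20) the lowest or the highest library stood apart from the other 3. Ndufa4 was highest in the CD34+ N1-AcSpd sample of mouse 3, at 322.5 CPM beside 275.8 to 282.4 CPM in the others. Uqcrc1 was lowest in the CD34− N1-AcSpd sample of mouse 1, at 109.1 CPM beside 118.0 to 119.2 CPM. For mt-Nd1 the CD34− untreated sample of mouse 2 was lowest, at 720.9 CPM beside 801.7 to 807.0 CPM. For mt-Nd2 the CD34− N1-AcSpd sample of mouse 2 was lowest, at 124.8 CPM beside 134.1 to 135.4 CPM, and the call of mt-Nd2 under treatment was lost without that library. The summed mitochondrial complex I genes were lowest in the CD34+ untreated sample of mouse 2, at 1684 CPM beside 1825 to 1846 CPM. The summed nuclear complex III genes were lowest in the CD34+ N1-AcSpd sample of mouse 2, at 1499 CPM beside 1570 to 1578 CPM. Of that sum Uqcrh gave 220.7 CPM in mouse 2 and 292.7, 215.0 and 314.0 CPM in mice 1, 3 and 4. Of these 6 libraries 4 came from mouse 2, and no cause was tested.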

How the results depend on the processing

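The number of genes called moved by over 1.5 times under these alternatives. With library totals it was 54 in untreated and 71 in N1-AcSpd cells between cell types, and 1 and 0 under treatment in CD34− and CD34+ cells. Without a low-count filter it was 23 untreated between cell types and 1 and 0 under treatment, with the mouse as a block 5 and 2 under treatment, with only the compared groups or with thinning to the smallest library 0 and 0, and with DESeq2 8 and 8. The calls under treatment over all genes moved too, from 117 and 62 in the main fit. They were 107 and 49 with library totals, 35 and 35 without the filter and 349 and 152 with the block. With only the compared groups they were 0 and 23, with thinning 35 and 27, and with DESeq2 558 and 423. An added log2 fold change over 0.5 left 2 and 2 between cell types and 0 and 0 under treatment. Over the runs without 1 library or 1 mouse the counts ran from 20 to 39 and from 23 to 42 between cell types (20 and 21 untreated without mouse 1 or mouse 4, and 23 under N1-AcSpd without mouse 4), from 0 to 4 in CD34− and from 0 to 1 in CD34+ cells under treatment, and stayed at 0 for the difference of the cell type effects, which was not refitted on fewer groups because it uses all 4. The cause was not tested beyond the smaller number of samples or of UMIs in such runs. On library totals the log2 fold changes of Atp5f1 (0.046), Atp5g3 (0.012), Cox5a (0.021) and Ndufab1 (0.026) untreated and of Atp5f1 (0.055), Cox5a (0.074) and Uqcrb (0.11) under N1-AcSpd turned to above 0, as the scale moved the median of all genes. These 7 values were called on at least 1 of the scales, and another 16 values of named genes, called on neither, also changed sign on library totals, among them those of mt-Nd3, mt-Nd4l and mt-Nd6 untreated. Of 5904 alternative values of named genes 5637 stayed on the same side of the threshold, 193 lost a call, 67 gained one and 7 turned. Of the 5637, 204 changed sign without a call in either fit. Apart from the genes whose blocked value is given, the mouse block changed no call of a named gene. A gene of few UMIs, such as mt-Nd6 or Cox6b2, allows only large differences to be seen at this depth.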
